A study of Mus musculus with 24 samples.

Results

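The genes described here are 10 feedback inhibitors of MAP kinase signalling: the phosphatase genes Dusp1, Dusp4, Dusp5 and Dusp6, the Sprouty genes Spry1, Spry2 and Spry4, and the Spred genes Spred1, Spred2 and Spred3. They were chosen by symbol and by what their products do, with earlier results of these data known. Shares of all genes set beside their counts therefore describe the set and are no independent test of it. All 10 were found among the 28859 genes of the count table and among the 18060 genes that passed the filter on low counts. Male C57BL/6J mice gave the RNA, which came from the lateral septum of the forebrain. Stressed mice had undergone chronic social defeat stress (CSDS) for 1, 4, 7 or 10 days, in which an aggressive CD-1 mouse was met for 10 min each day and then kept behind a clear barrier. Controls lived in the same way without defeat, with their own control group for each day. The labels name no engineered allele and give an age of 8 to 14 weeks for all mice. There are 24 libraries in 8 groups of 3, and the labels do not state that each library is a separate animal, so the p-values measure the spread between libraries, which may be partly technical.

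Growth factors and neurotrophins activate receptor tyrosine kinases, which switch on Ras and then the kinases Raf, MEK and ERK. ERK in turn induces genes whose products shut the pathway down. Dusp proteins of this family remove phosphate from active MAP kinases: Dusp6 acts on ERK in the cytoplasm, Dusp5 on ERK in the nucleus, and Dusp1 and Dusp4 on ERK, JNK and p38 in the nucleus. Sprouty proteins act between the receptor and Raf, and Spred proteins bring the Ras inhibitor neurofibromin to the membrane. Transcript levels of Dusp6, Spry2 and Spry4 are often read as a proxy of recent ERK activity, while Dusp1 is also an immediate early gene that neuronal activity and glucocorticoids induce.

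Promoter sequence from RefSeq on GRCm38.p6 was at hand for 8 of the 10 genes (Dusp1, Dusp5, Dusp6, Spry1, Spry2, Spred1, Spred2 and Spred3) and was searched on both strands over the 250 bases before the annotated start. The promoters of Dusp1 and Dusp5 are shown because they were the only ones of the 8 with a full cAMP response element (TGACGTCA) or a CArG box, the elements known from activity-induced genes such as Fos and Egr1. The Dusp1 sequence lies at chr17:26508473-26508722 on the minus strand, and capitals mark TGACGTCA, 143 to 136 bases before the start, and a separate TGACG 191 to 187 bases before it. The Dusp5 sequence lies at chr19:53528895-53529144 on the plus strand. Its capitals mark 2 adjoining CArG boxes at 82 to 73 and 72 to 63 bases before the start, and CGTCA, the reverse complement of TGACG, at 55 to 51.
Dusp1: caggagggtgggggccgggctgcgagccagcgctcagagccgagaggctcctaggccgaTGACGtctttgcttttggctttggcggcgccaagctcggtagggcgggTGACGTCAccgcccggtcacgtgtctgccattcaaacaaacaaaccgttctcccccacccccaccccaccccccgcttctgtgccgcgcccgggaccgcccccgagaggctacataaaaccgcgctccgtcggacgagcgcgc
Dusp5: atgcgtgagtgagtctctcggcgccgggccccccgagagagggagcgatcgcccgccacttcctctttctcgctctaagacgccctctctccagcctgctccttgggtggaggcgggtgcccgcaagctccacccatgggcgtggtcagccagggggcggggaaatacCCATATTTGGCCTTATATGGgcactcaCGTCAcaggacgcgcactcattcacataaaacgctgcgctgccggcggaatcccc
TGACGTCA was present in 1.55% of 32851 promoters of the same length, and the CArG box in 1.47%. The shorter TGACG, which TGACGTCA contains, was in 17.8% of promoters and in Dusp1, Dusp5 and Spred2. The AP-1 element TGANTCA (6.75% of promoters) and the ETS element CCGGAA (12.0%) were in none of the 8. These matches describe the letters of a window and show no binding.

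Levels between genes were compared per length, as FPKM of the authors' table, that is counts scaled by gene length and library size. Spred1 had the highest level, at 26.4 ± 2.49 FPKM (SD over 24 libraries). Dusp6 (8.53 ± 1.29), Spred3 (8.41 ± 0.813), Spry2 (7.80 ± 0.869) and Dusp1 (7.77 ± 1.85) followed in a cluster whose means lay within 1 SD of each other. Dusp4 (4.46 ± 1.06), Dusp5 (4.38 ± 0.912) and Spry1 (3.68 ± 0.616) formed a lower cluster, and Spry4 (2.13 ± 0.458) and Spred2 (2.06 ± 0.185) were lowest. The order below Spred1 rests on the gene lengths: the authors' FPKM imply 37937 bases for Spred2, 10374 for Spry4 and 4440 for Spry2, against 4449, 4755 and 2087 bases for the longest coding transcript in GENCODE vM21. With the transcript lengths, Spred2 stood second of the 10 at a mean of 17.6 FPKM, Spry2 left its cluster at 16.6 FPKM, Spred3 and Dusp6 stood at 12.3 and 9.81 FPKM, and Spry4 at 4.65 FPKM. Length is constant for a gene and does not enter any comparison between groups.

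**Figure D1:**
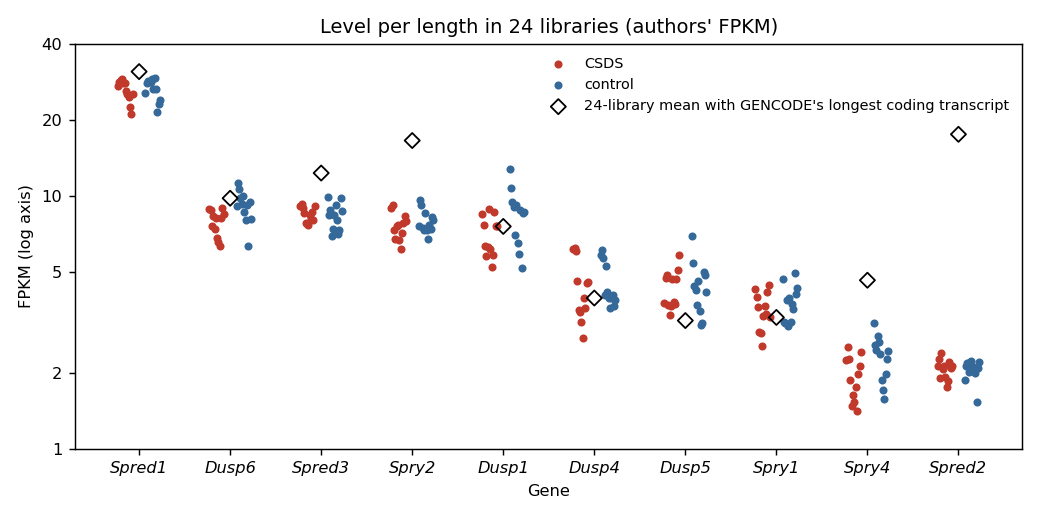
Level of each gene in FPKM on a log axis, with 1 point per library (CSDS libraries left, control libraries right) and a diamond for the 24-library mean recomputed with the longest coding transcript. Spred1 lies highest at a mean of 26.4 FPKM, and the diamond of Spred2 (17.6 FPKM) lies far above its points (mean 2.06 FPKM).

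By the ratio of the highest to the lowest library, the 3 Spred genes varied least. The highest library held 2.41 times the CPM (counts scaled to library size after TMM normalization) of the lowest for Dusp1, 2.29 times for Dusp4, 2.15 times for each of Spry4 and Dusp5, 2.05 times for Spry1, 1.78 times for Dusp6 and 1.59 times for Spry2. For Spred2, Spred1 and Spred3 these ratios were 1.49, 1.41 and 1.39. Within groups, the SD of log2 CPM did not set Spred2 (0.128) and Spred3 (0.124) apart from Spry2 (0.124) and Dusp6 (0.131). It was lowest for Spred1 (0.0817) and highest for Dusp1 (0.244). Raw counts behind the values ran from 201 to 8083 per gene and library, in libraries of 31182747 to 41205354 counts. Dusp1 overlaps Ergic1 (mean 146 CPM) on the opposite strand and Spred3 overlaps Ggn (mean 0.753 CPM). The library kit kept strand, but the strand setting of the counting is not given in the sources used here, so reads of Dusp1 and Ergic1 may be mixed.

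All 14 lateral septum neuron markers were detected in every group, with summed levels of 1919 to 2765 CPM per library. The 10 striatal neuron markers were detected too (sums of 500 to 1423 CPM per library), so detection alone does not check the tissue label. Neighbouring tissue varied: the summed level of 12 choroid plexus markers ran from 224 to 14206 CPM per library and that of 12 cortex or hippocampus markers from 1832 to 3560 CPM. Camk2a (1499 to 2858 CPM) made up most of the latter sum, which hides the spread of the rarer markers. Single markers of that list varied from little (Cux2, 24.4 to 36.7 CPM) to much (Slc17a7, 15.9 to 524 CPM, and Neurod2, 0.363 to 27.3 CPM). The control library of day 10 numbered 1 stood apart, with the lowest total and the lowest TMM factor (0.947). Day 10 fold changes of the 10 genes are summarized with and without it. List medians, marker values and group ranges of day 10 include it. In bulk tissue, fewer cells of a type and less RNA per cell cannot be told apart.

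**Figure D2:**
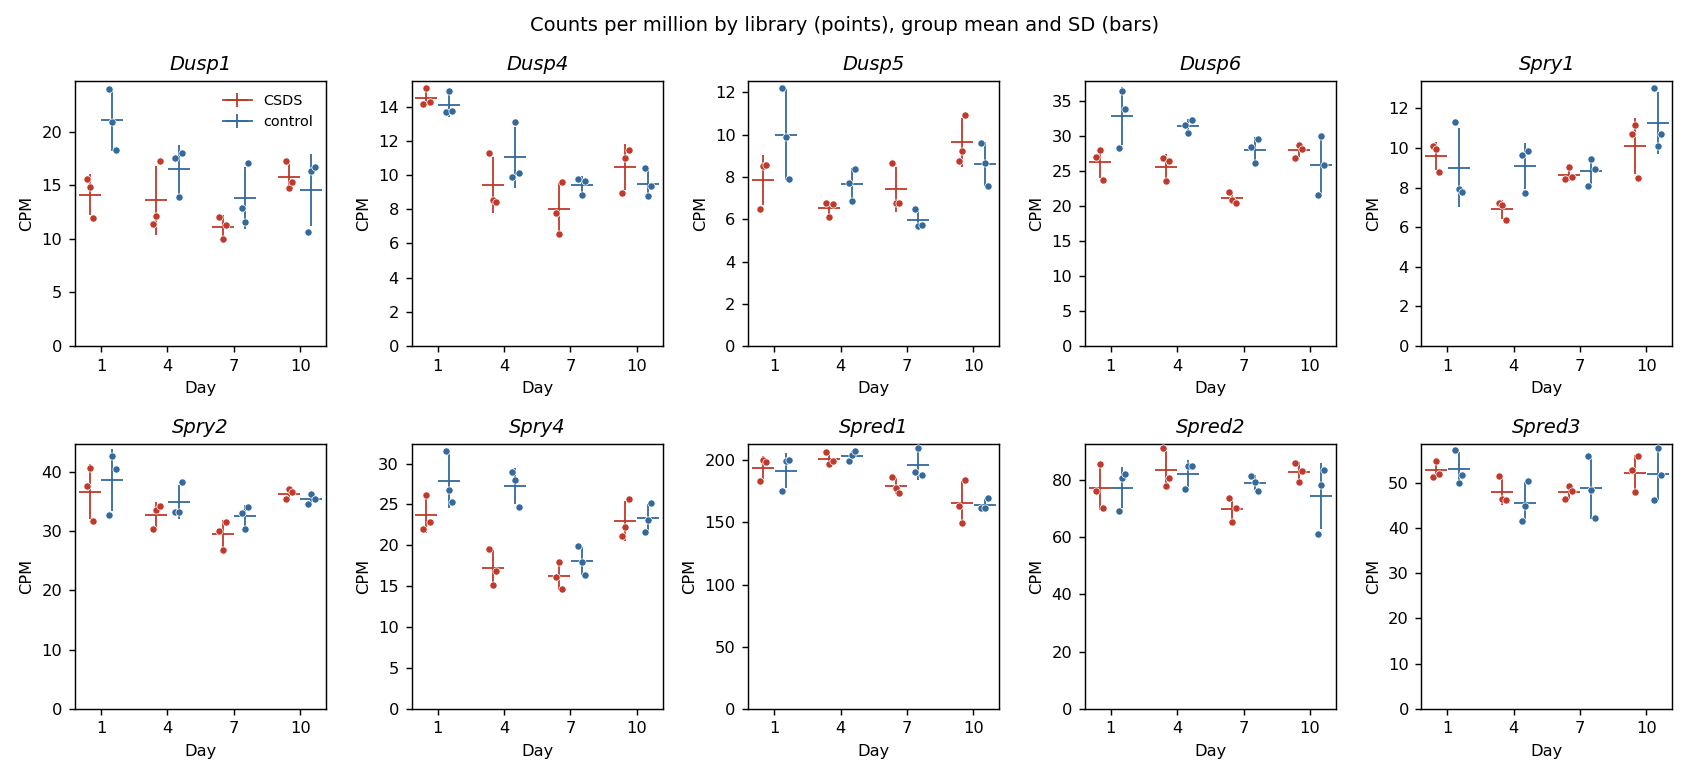
CPM of each gene by day, with 1 point per library (CSDS left, control right), and the group mean with its SD (n = 3). On day 4 the Spry4 points of CSDS mice (15.2 to 19.6 CPM) lie below those of control mice (24.7 to 28.9 CPM), and Dusp6 shows separated groups on days 1, 4 and 7.

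On day 4, Spry4, which blocks receptor signalling upstream of Raf, fell in stressed mice. It stood at 19.6, 15.2 and 16.9 CPM in CSDS libraries, against 28.9, 28.0 and 24.7 CPM in control libraries. Every CSDS library lay below every control library of that day. The means were 17.2 ± 2.21 CPM in CSDS mice and 27.2 ± 2.20 CPM in controls (SD, n = 3 each), a log2 fold change of -0.66 (SE 0.11, adjusted p = 0.0133, edgeR quasi-likelihood), or 0.633 of the control level. Spry4 was the only gene of the 10 called on day 4, where 0.111% of all tested genes were called (20 genes).

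The size of the Spry4 difference was steady, and its call was not. The call was lost in the fit of the day 4 libraries alone (log2 fold change -0.66, adjusted p = 0.142) and without any 1 of 4 libraries: control replicate 1 (adjusted p = 0.112), control replicate 2 (0.0644), CSDS replicate 2 (0.176) or CSDS replicate 3 (0.103), where the value stayed between -0.65 and -0.58. Controls were not level over the days either. Among controls, Spry4 ranged over 25.3 to 31.6 CPM (day 1), 24.7 to 28.9 CPM (day 4), 16.4 to 19.9 CPM (day 7) and 21.7 to 25.2 CPM (day 10). Stressed day 4 libraries (15.2 to 19.6 CPM) therefore overlapped the controls of day 7, and low stressed levels and high control levels on day 4 cannot be told apart from these groups.

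Dusp6, the cytoplasmic ERK phosphatase, had the next smallest p of the 10 on day 4, without passing. It stood at 26.9, 23.6 and 26.4 CPM in CSDS libraries, against 31.6, 30.5 and 32.4 CPM in control libraries, which did not overlap. Its log2 fold change was -0.30 (SE 0.10, unadjusted p = 0.00903, adjusted p = 0.417). Spry1 stood at 7.24, 7.13 and 6.36 CPM in CSDS libraries and at 9.65, 7.74 and 9.86 CPM in control libraries, also without overlap (log2 fold change -0.39, SE 0.15, adjusted p = 0.455). Dusp5 was the fourth gene with separated groups, at 6.10 to 6.76 CPM in CSDS libraries and 6.84 to 8.39 CPM in control libraries (log2 fold change -0.23). So 4 of the 10 genes had every CSDS library below every control library, against 8.41% of all tested genes, and none had every CSDS library above (7.16%). Spry4, Dusp6 and Spry1 had an unadjusted p under 0.05, against 4.06% of all genes in the lower direction. Of the 10 values, 8 were below 0, with a median of -0.23, beside 49.5% of all genes and a median of 0.00. Dusp1 and Dusp4 stood at -0.28 and -0.23 with overlapping groups, and Spry2, Spred1, Spred2 and Spred3 lay between -0.09 and 0.08. Choroid plexus markers were lower in the same CSDS group, with 12 of 12 values below 0 (median -1.34) and sums of 302 to 5220 CPM in CSDS libraries and 308 to 9680 CPM in control libraries. Lateral septum neuron markers had 13 of 14 values below 0 (median -0.07) and oligodendrocyte markers 7 of 8 (median -0.16), while cortex or hippocampus markers had 10 of 12 above 0 (median 0.21) and endothelial markers 8 of 10 (median 0.14). With choroid plexus and cortex scores as covariates, the Spry4 value was -0.68 (adjusted p = 0.00961).

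After 1 day, no gene of the 10 was called, where 0.00554% of all genes were (1 gene). Dusp1, the nuclear phosphatase with the cAMP response element, had the largest fold change of the 10. It stood at 15.6, 14.9 and 12.0 CPM in CSDS libraries, against 24.0, 20.9 and 18.3 CPM in control libraries, and these ranges did not overlap. Its log2 fold change was -0.58 (SE 0.18, unadjusted p = 0.00452, adjusted p = 0.504). Day 1 controls were the highest of the 8 groups for Dusp1, and no library of the group below it, the day 4 controls (13.9 to 18.0 CPM), reached their range. Dusp6 stood at 27.0, 28.1 and 23.7 CPM in CSDS libraries and at 28.3, 36.4 and 34.0 CPM in control libraries. The closest libraries of the 2 groups differed only by 28.1 against 28.3 CPM, and the log2 fold change was -0.32 (SE 0.10, adjusted p = 0.516). Dusp5 had a log2 fold change of -0.35 (SE 0.15, unadjusted p = 0.0341), with overlapping groups of 6.48 to 8.56 CPM in CSDS libraries and 7.90 to 12.2 CPM in control libraries. Spry4 stood at -0.24 (SE 0.11), also with overlap.

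Those 3 phosphatases were the genes with an unadjusted p under 0.05 in the lower direction on day 1, against 4.47% of all genes. Groups were separated with CSDS lower for 2 of the 10 genes (6.26% of all genes) and with CSDS higher for none (5.30%). Dusp4, the remaining phosphatase, did not differ beyond its spread, at 14.5 ± 0.482 CPM in CSDS mice and 14.1 ± 0.715 CPM in controls. The Spred genes stood between -0.01 and 0.02. In all, 7 of 10 values were below 0 with a median of -0.04, against 52.0% of all genes and a median of -0.01. Markers of cortex or hippocampus neurons were lower in the same CSDS group (10 of 12 values below 0, median -0.76, sums of 2180 to 3140 CPM in CSDS libraries and 2771 to 3441 CPM in control libraries), and choroid plexus markers higher (12 of 12 above 0, median 3.49). Striatal neuron markers (10 of 10, median 0.27) and oligodendrocyte markers (8 of 8, median 0.15) also had values above 0, and the part of these 2 lists was not tested. With covariates for choroid plexus and cortex markers, 4 of the 10 genes were below 0 on day 1 and 6 above (median 0.02), Dusp1 stood at -0.53 (SE 0.19) and Dusp6 at -0.22 (SE 0.10), and none was called.

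On day 7, no gene of the 10 was called (0.00554% of all genes, 1 gene). Dusp6 again had separated groups, at 22.1, 20.8 and 20.4 CPM in CSDS libraries, against 28.4, 26.2 and 29.7 CPM in control libraries. The lowest control library stood clear of the highest CSDS library, and the log2 fold change was -0.41 (SE 0.10, unadjusted p = 0.000697, adjusted p = 0.502). It was the 1 gene of the 10 with an unadjusted p under 0.05 on that day, against 2.17% of all genes in the lower direction. Spred1 stood at 186, 177 and 174 CPM in CSDS libraries and at 191, 210 and 188 CPM in control libraries, and Spred2 at 73.5, 65.3 and 70.1 CPM in CSDS libraries and at 81.4, 79.1 and 76.2 CPM in control libraries. Neither pair of groups overlapped, and the log2 fold changes were small, at -0.13 (SE 0.07) for Spred1 and -0.18 (SE 0.10) for Spred2. Dusp5 went the other way, at 8.65, 6.78 and 6.79 CPM in CSDS libraries and 6.48, 5.67 and 5.75 CPM in control libraries, without overlap (log2 fold change 0.31, SE 0.16, unadjusted p = 0.0585).

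Day 7 thus had 3 of 10 genes with CSDS lower and separated (4.88% of all genes) and 1 of 10 with CSDS higher (4.95%). Of the 10 values, 9 were below 0, with a median of -0.15, against 49.2% of all genes and a median of 0.00. Spry4 stood at 16.1, 18.0 and 14.7 CPM in CSDS libraries and at 19.9, 18.0 and 16.4 CPM in control libraries, ranges that overlapped (log2 fold change -0.16, SE 0.12). Cortex or hippocampus markers were lower here too, with 10 of 12 values below 0 (median -0.66) and sums of 2139 to 2329 CPM in CSDS libraries and 2319 to 3035 CPM in control libraries. Astrocyte markers had 8 of 9 values below 0 (median -0.09), with sums of 5010 to 5302 CPM in CSDS libraries and 5480 to 5671 CPM in control libraries. Choroid plexus markers had 12 of 12 values above 0 (median 0.76), microglia markers 8 of 8 below 0 (median -0.07) and oligodendrocyte markers 7 of 8 below 0 (median -0.10). With covariates for choroid plexus and cortex markers, 8 of the 10 genes were below 0 and 2 above (median -0.12). Dusp6 then stood at -0.30 (SE 0.11, adjusted p = 0.999), Spred1 at -0.11 (SE 0.07), Spred2 at -0.03 (SE 0.08) and Dusp5 at 0.32 (SE 0.18). The part of the astrocyte, microglia and oligodendrocyte markers was not tested.

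By day 10 none of the 10 genes was called (0.166% of all genes, 30 genes), none had an unadjusted p under 0.05 (5.62% of all genes in the lower direction), and no gene had separated groups in either direction, against 7.17% of all genes with CSDS lower and 8.44% with CSDS higher. Dusp6 stood at 26.9, 28.8 and 28.2 CPM in CSDS libraries and at 21.5, 30.1 and 25.9 CPM in control libraries, and the control range enclosed the CSDS range. Its log2 fold change was 0.11 (SE 0.10). Spry4 did not differ beyond its spread, at 23.0 ± 2.41 CPM in CSDS mice and 23.3 ± 1.75 CPM in controls (log2 fold change -0.02, SE 0.11). Spry2 stood at 36.4 ± 0.857 CPM in CSDS mice and 35.5 ± 0.806 CPM in controls, and Dusp1 at 15.8 ± 1.32 CPM in CSDS mice and 14.6 ± 3.37 CPM in controls.

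Of the 10 values on day 10, 8 were above 0 and 2 below (46.3% of all genes were below), with a median of 0.07, but this count rested on 1 library. Control replicate 1 was an extreme of its group for all 10 genes. It had the lowest value for Dusp1 (10.7 CPM), Dusp6 (21.5 CPM), Spred2 (61.2 CPM), Spred3 (46.2 CPM), Spry2 (34.6 CPM) and Spry4 (21.7 CPM). For Spred1 it was lowest by a small margin (161.7 CPM, against 161.9 CPM in replicate 2). It had the highest value for Dusp4 (10.4 CPM), Dusp5 (9.62 CPM) and Spry1 (13.0 CPM). Without it, 4 of 10 values were above 0 and 6 below, with a median of -0.01, a lowest value of -0.08 (Spry4) and a highest of 0.24 (Dusp5). Dusp6 and Dusp1 then stood at -0.01 and -0.07. Choroid plexus markers were lower in the CSDS group of day 10 (12 of 12 values below 0, median -1.42, sums of 337 to 9870 CPM in CSDS libraries and 4768 to 14206 CPM in control libraries), as were striatal neuron markers (10 of 10, median -0.50), while lateral septum neuron markers had 11 of 14 values above 0 (median 0.13). Cortex or hippocampus markers had 9 of 12 values above 0 (median 0.30). Their sums were 3281 to 3560 CPM in CSDS libraries and 2266 to 3187 CPM in control libraries, without overlap. With covariates for choroid plexus and cortex markers, 6 of the 10 genes were above 0 and 4 below (median 0.02), with Dusp6 at 0.08, and the part of the striatal markers was not tested.

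**Figure D3:**
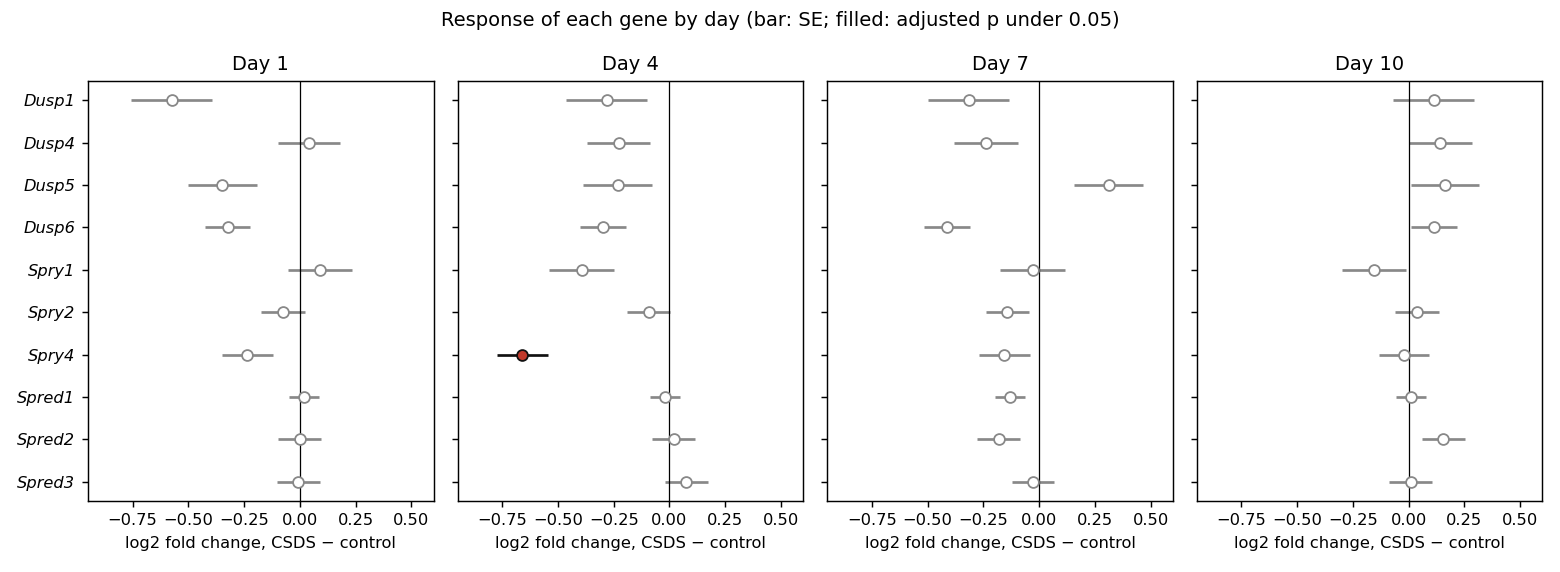
Log2 fold change (CSDS minus control) of each gene on each day, with its SE, filled where the adjusted p was under 0.05. Spry4 on day 4 (-0.66) is the 1 filled point, Dusp6 lies between -0.41 and -0.30 on days 1, 4 and 7 and at 0.11 on day 10, and the Spred genes stay between -0.18 and 0.16.

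Each day had its own controls, so the 4 daily values of a gene come from separate libraries. Dusp1, Dusp6, Spry2 and Spry4 were below 0 on each of days 1, 4 and 7, or 4 of 10 genes, against 14.3% of all genes. Of these 4, Dusp1, Dusp6 and Spry2 had a value above 0 on day 10 with all libraries. Dusp6 was the 1 gene of the 10 whose groups were separated with CSDS lower on all of days 1, 4 and 7, that is in 9 CSDS and 9 control libraries, by 0.30 to 0.41 on the log2 scale. Of all tested genes, 0.0775% (14 genes, Dusp6 among them) had that pattern.

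Averaged over the 4 days, none of the 10 genes was called (0.116% of all genes, 21 genes). Spry4 had a mean of -0.27 (SE 0.06, unadjusted p = 0.000124, adjusted p = 0.0800), Dusp6 -0.23 (SE 0.05, unadjusted p = 0.000217, adjusted p = 0.127) and Dusp1 -0.26 (SE 0.09, unadjusted p = 0.00832, adjusted p = 0.524). These 3 had an unadjusted p under 0.05, against 3.16% of all genes in the lower direction, and 9 of 10 values were below 0 with a median of -0.07, against 48.8% of all genes. DESeq2 called both Spry4 (-0.27, adjusted p = 0.00451) and Dusp6 (-0.23, adjusted p = 0.00972). In edgeR, Spry4 passed without day 4 CSDS replicate 1 (adjusted p = 0.0431) or day 10 CSDS replicate 3 (0.0407), and Dusp6 without day 1 control replicate 1 (0.0439) or day 10 control replicate 1 (0.0138). No other left-out library led to a call of either gene (adjusted p of up to 0.222 for Spry4 and 0.319 for Dusp6). With the replicate number as a block in edgeR, the adjusted p was 0.129 for Spry4 and 0.197 for Dusp6. With choroid plexus and cortex scores as covariates it was 0.0467 for Spry4 and 0.178 for Dusp6.

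Whether the response differed between the days was tested directly. No gene of the 10 passed (0.0221% of all genes, 4 genes, did), and none did under any alternative, DESeq2 included. Spry4 had the smallest unadjusted p of the 10, at 0.00467 (adjusted p = 0.252). Dusp6 had an unadjusted p of 0.00813 (adjusted p = 0.290) and Dusp5 of 0.0190 (adjusted p = 0.371). The lower values of days 1, 4 and 7 and the higher ones of day 10 are therefore not shown to differ.

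More of the 10 genes were called between days than between conditions. Among CSDS libraries alone, 7 of the 10 genes differed between days (Dusp4, Dusp5, Dusp6, Spry1, Spry2, Spry4 and Spred1), against 47.9% of all genes. Among control libraries alone, 6 of 10 did (Dusp1, Dusp4, Dusp5, Dusp6, Spry4 and Spred1), against 40.7%. The labels give 1 age range for all mice and no batch, so day cannot be told apart from age or batch here.

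Dusp4 had the plainest course with day. It stood at 14.5 ± 0.482 CPM in CSDS mice and 14.1 ± 0.715 CPM in controls on day 1, and at 7.99 ± 1.53 CPM in CSDS mice and 9.42 ± 0.509 CPM in controls on day 7. All 6 libraries of day 1 (13.7 to 15.1 CPM) lay above all 18 later libraries (6.58 to 13.1 CPM). How many of all genes had such a separation of days was not counted. The adjusted p for a difference between days was 0.000267 among CSDS libraries and 0.00546 among controls. Spry4 changed with day in both conditions (adjusted p = 0.000552 among CSDS libraries and 0.000706 among controls). Over days 1, 4, 7 and 10 its means were 23.7 ± 2.18, 17.2 ± 2.21, 16.2 ± 1.66 and 23.0 ± 2.41 CPM in CSDS mice. The control means of the same days were 27.9 ± 3.28, 27.2 ± 2.20, 18.1 ± 1.72 and 23.3 ± 1.75 CPM. The low levels thus covered days 4 and 7 in CSDS mice and day 7 in controls. In the order of the 8 group means, the 1 gap without overlap between neighbours lay between day 10 CSDS and day 7 controls. Above it were all groups of days 1 and 10 and the day 4 controls, and below it were the groups of day 7 and day 4 CSDS.

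Dusp6 was lowest in CSDS mice of day 7, at 21.1 ± 0.843 CPM, and every library of that group lay below the next group, CSDS mice of day 4 (23.6 to 26.9 CPM). In the order of group means, a further gap lay between the controls of day 4 (30.5 to 32.4 CPM) and the group next below, the controls of day 7 (26.2 to 29.7 CPM). Spry1 was lowest in CSDS mice of day 4, at 6.91 ± 0.477 CPM, with no overlap with the group next above it, the CSDS mice of day 7 (8.41 to 9.04 CPM). Spred1 stood at 201 ± 5.02 CPM in CSDS mice and 204 ± 3.88 CPM in controls on day 4, and at 166 ± 17.5 CPM in CSDS mice and 164 ± 4.61 CPM in controls on day 10. No neighbouring groups were free of overlap for Spry2, Spred1, Spred2 or Spred3. The share of all genes with such gaps between neighbouring groups was not counted, so the gaps are only a description.

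Dusp4, Spry4 and Spred1 kept their calls with day in both conditions whichever library was left out, and Dusp5 did so among controls. Among CSDS libraries, Spry2 was lost without any 1 of 9 libraries: day 1 CSDS replicates 1 or 2, day 7 CSDS replicates 1 or 2, day 10 CSDS replicates 2 or 3, day 7 control replicates 1 or 2, or day 10 control replicate 3 (adjusted p of up to 0.216). Dusp5 was lost without day 4 CSDS replicate 2, day 7 CSDS replicate 2, or day 10 CSDS replicates 2 or 3 (up to 0.186), Spry1 without day 4 CSDS replicate 3 or day 10 CSDS replicate 2 (up to 0.0796), and Dusp6 without day 7 CSDS replicates 2 or 3 (up to 0.0805). Covariates for choroid plexus and cortex markers also ended the calls among CSDS libraries of Dusp6 (adjusted p = 0.0764) and Spry2 (0.0509), and dropping the filter on low counts that of Spry2 (0.0522). Among controls, Dusp1 was lost without any 1 of 9 libraries: day 1 CSDS replicate 2, day 7 CSDS replicates 1 or 2, day 10 CSDS replicates 2 or 3, day 1 control replicates 1 or 2, or day 7 control replicates 1 or 2 (up to 0.196). Dusp6 was lost among controls without any 1 of 8: day 7 CSDS replicate 2, day 1 control replicates 2 or 3, day 4 control replicate 3, day 7 control replicates 1 or 2, or day 10 control replicates 1 or 3 (up to 0.116).

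The other genes of the pathway were counted in 7 lists. These too were chosen with earlier results of these data known, so they are no independent test of the 10 genes. Of 22 transcription factors and early genes that respond to ERK, Egr2 was lower on day 1, with a log2 fold change of -1.60 (adjusted p = 0.0209), and Egr1 was lower on day 4 (-0.74, SE 0.12, adjusted p = 0.00684). None was called on days 7 and 10. The share of all genes called was 0.00554% on day 1 and 0.111% on day 4. Values of the list were below 0 for 17, 17, 20 and 8 of 22 genes on days 1, 4, 7 and 10, against 52.0%, 49.5%, 49.2% and 46.3% of all genes. The list medians were -0.28, -0.29, -0.21 and 0.07. Averaged over the days, Egr1 (-0.32, adjusted p = 0.0187), Egr2 (-0.75, adjusted p = 0.00779) and Fos (-0.73, adjusted p = 0.0374) fell, and Egr1 was the 1 list member whose response differed between days (adjusted p = 0.0271). Over days 1, 4, 7 and 10, Egr1 ranged over 168 to 231, 129 to 148, 113 to 121 and 176 to 201 CPM in CSDS libraries. The control libraries of the same days ranged over 294 to 365, 219 to 242, 136 to 146 and 119 to 166 CPM. Its groups did not overlap on any day, with CSDS lower on days 1, 4 and 7 and higher on day 10. Egr1 also differed between days among controls (adjusted p = 2.0e-07), as Spry4 did. The Egr2 call of day 1 was lost without control replicates 1 or 2 or any CSDS replicate of that day (adjusted p of up to 0.317), and the Egr1 call of day 4 without CSDS replicates 2 or 3 (up to 0.0683). Over the days, Egr2 stayed called whichever library was left out. Egr1 was lost without day 4 CSDS replicates 2 or 3 or day 1 control replicate 2 (up to 0.0565), and Fos without any 1 of 19 of the 24 libraries (up to 0.113). The Egr1 call of a response that differed between days was lost without any 1 of 8 libraries, which were day 4 CSDS replicate 2, the 3 of day 7 CSDS, day 10 CSDS replicates 1 or 3, and control replicate 2 of days 7 or 10 (up to 0.0903).

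In the other lists of the pathway, 1 gene in all was called on any day. Of the 6 other MAP kinase phosphatases (Dusp2, Dusp7, Dusp8, Dusp9, Dusp10 and Dusp16), none was called on any day, and the list medians were 0.14, 0.10, 0.01 and -0.01 on days 1, 4, 7 and 10. Dusp7, an ERK phosphatase, had the smallest p of them on day 1, with a log2 fold change of -0.25 (adjusted p = 0.602). None of 13 further feedback inhibitors of receptors and Ras was called, with medians of -0.05, 0.03, -0.02 and 0.09. Among these, the ERK-inhibited repressor Erf stood at -0.40 on day 1 (adjusted p = 0.439) and the ErbB inhibitor Errfi1 at -0.28 on day 1 (adjusted p = 0.497) and -0.24 on day 4 (adjusted p = 0.429).

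Of 21 ligands of receptor tyrosine kinases, none was called (medians -0.05, 0.14, -0.03 and 0.02). The smallest p among them belonged to Nrg3, a neuregulin, on day 1 (-0.37, adjusted p = 0.522) and to Igf1, a growth factor, on day 4 (0.72, adjusted p = 0.417). Of 19 receptors, Erbb3, a neuregulin receptor, fell on day 10 by 0.73 (SE 0.14, adjusted p = 0.0353), at 16.7 to 18.6 CPM in CSDS libraries and 28.2 to 30.4 CPM in control libraries. Oligodendrocyte markers had 8 of 8 values below 0 on that day (median -0.32, sums of 6503 to 7736 CPM in CSDS libraries and 7492 to 10550 CPM in control libraries), and their part in the Erbb3 value was not tested. The Erbb3 call was lost without any 1 of the 6 day 10 libraries, without any of the 3 day 1 CSDS libraries and without day 1 control replicate 3 (adjusted p of up to 0.136). Neither the 21 genes of the Ras to ERK cascade (medians -0.01, 0.01, -0.04 and 0.08) nor the 11 of the JNK and p38 cascades (-0.05, 0.01, 0.01 and 0.13) held a called gene on any day. In the Ras to ERK cascade, the MEK gene Map2k2 stood at -0.24 on day 4 (adjusted p = 0.315).

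**Figure D4:**
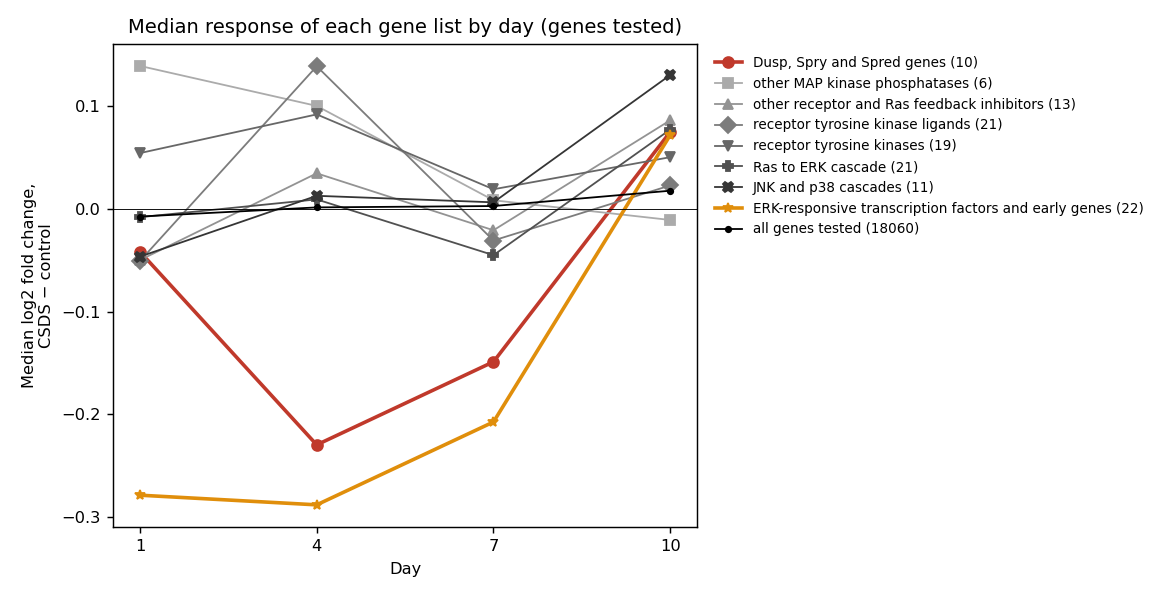
Median of the log2 fold changes in each gene list by day (CSDS minus control), with the number of genes tested in brackets. The ERK-responsive early genes (-0.28, -0.29, -0.21 and 0.07) and the Dusp, Spry and Spred genes (-0.04, -0.23, -0.15 and 0.07) lie below the other lists on days 4 and 7.

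The genes whose levels over the 24 libraries were most like those of a feedback gene were found by Pearson r of log2 CPM among 14424 genes. Values of r describe libraries that share days and conditions, and no p is given. For Dusp1 they were the early response genes Btg2 (r = 0.893), Fos (0.883) and Junb (0.854). Spry4 was closest to the kinase gene Sik1 (0.868), the adhesion receptor gene Adgrg1 (0.844) and Egr1 (0.828), and Dusp6 to Rap2a (0.810), Trib1 (0.798) and Egr1 (0.798). Egr1 was thus among the closest 3 genes of both Spry4 and Dusp6. The other 7 feedback genes had no gene of the ERK-responsive list among their closest 3. Dusp4 was closest to Bicdl1 (0.903), Mpc2 (0.889) and Armc6 (0.875), and Dusp5 to Dnajc14 (0.828), Stx8 (0.811) and Sdhb (0.803). For the Sprouty genes, Spry2 was closest to Sbk1 (0.896) and Hrh3 (0.869), and Spry1 to Ctsz (0.838) and Jmjd8 (0.827). For the Spred genes, Spred1 was closest to Kdm7a (0.877), Spred2 to Zfp831 (0.890) and Spred3 to Iqsec2 (0.829). Sik1, the closest gene to Spry4, stood on day 4 at 32.4 to 35.1 CPM in CSDS libraries and 42.5 to 49.2 CPM in control libraries. Fos, the second closest to Dusp1, stood on day 1 at 13.1 to 19.3 CPM in CSDS libraries and 33.1 to 56.3 CPM in control libraries. Sik1 and Fos were picked for their likeness over these same libraries. Their lower CSDS levels are therefore no separate evidence for Spry4 or Dusp1.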

How the data were processed

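Poly(A) RNA of 24 lateral septum samples was sequenced as 150 bp pairs from directional libraries, per the labels' protocols. The submitters' processing notes name fastp, HISAT2, HTSeq and GRCm39, without versions. The authors deposited whole-number read counts per gene and FPKM per gene, each with 28859 genes. Total counts were 31182747 to 41205354 per library. FPKM were used only for levels between genes.

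Counts were fitted in edgeR 4.0.16 (R 4.3.3) after filterByExpr by group (18060 genes) and TMM scaling, with 1 mean per group, 16 residual degrees of freedom and the quasi-likelihood test. Contrasts set CSDS against control within each day and on average over the 4 days, and F tests asked whether that response, or the level within each condition, differed between days. Benjamini-Hochberg adjustment of the two-sided p-values ran over all tested genes, and calls required an adjusted p under 0.05. The standard error (SE) was taken as |log2 fold change|/√F. The script was tested on simulated counts with known changes. Replicates differed beyond sampling noise (lowest chi-square per degree of freedom 11.8 over 24 pairs of replicates), so none was merged.

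The members, pathway lists and marker lists were chosen with earlier results of these data known. All 10 members were tested in each comparison, but the text does not name all of them each time. Those named were often the ones with a call, separated groups or a small p, so they are a selection. The plot of log2 fold changes by gene and day shows all 10 on each day. Pathway list members were named where called for CSDS against control or for a response that differed between days. Where none was called, genes of small p were named for some lists and days only. The 3 genes most like each member were taken among genes with a mean of at least 1 CPM. Spry3, a further listed inhibitor, was not analysed here. Alternatives were DESeq2 1.42.0, edgeR with RLE scaling, dropping the low-count filter, tightening it to 1 CPM or more in at least 3 libraries, a block for the replicate number, the libraries of the compared day alone, choroid plexus and cortex marker scores as covariates, and leaving out each library.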

Additional observations from a re-analysis of the deposited data

How the results depend on the processing

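Over 31 alternatives, 2440 values of the 10 genes were recomputed. Called values kept their sign throughout, and 83 values that were not called changed sign (61 with 1 library left out, 22 otherwise), none beyond 0.146 in size. Spry4 on day 4 stayed called with RLE (adjusted p = 0.0136), DESeq2 (4.9e-05), no filter (0.00609), the filter of 1 CPM (0.0141) and the covariates (0.00961). The number of the 10 genes called on day 4 was 0 with the libraries of that day alone and 0 to 1 with a library left out. For the mean of the 4 days it was 2 with DESeq2, 1 with the covariates and 0 to 1 with a library left out. For days among CSDS libraries it was 4 to 8 with a library left out; the covariates ended Dusp6 (adjusted p = 0.0764) and Spry2 (0.0509) there, and no filter Spry2 (0.0522). The cause was not tested.

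The replicate numbers gave no clear sign of a pairing: same-numbered CSDS and control libraries had correlations of -0.74 to 0.45, over 0.1 in 5 of 12 pairs, and 6 of 24 libraries correlated best with their own number. These correlations used deviations from means of only 3 libraries, so they cannot exclude a pairing. With the replicate number as a block, Spry4 on day 4 stood at -0.66 (adjusted p = 0.0267), and 20 genes in all were called on day 4. The block ended the calls of Erbb3 on day 10 (adjusted p = 0.0512), of Fos for the mean (0.0573) and of Egr1 for a response that differed between days (0.0549). The covariates ended those of Erbb3 (-0.60, 0.147) and Fos (-0.71, 0.0602), and the fit of the day alone those of Egr2 on day 1 (0.149) and Erbb3 (0.241).

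Sign changes on day 1 were, for Spred2, 0.0078 with RLE and with DESeq2, 0.0013 with no filter, 0.0029 with the filter of 1 CPM, 0.0011 with the block, 0.15 with the covariates and 0.013 with the day alone. Spred3 on day 1 came to 0.00047, 0.00044, 0.039 and 0.0055 with RLE, DESeq2, the covariates and the day alone, and Spry2 to 0.032 with the covariates. With the covariates, Spred2 on day 4 was -0.062, Spred3 on day 7 0.024, and Spred3 and Spred1 on day 10 -0.064 and -0.056. Spred3 on day 10 was -0.00091 with RLE, -0.0013 with DESeq2 and -0.0066 with the day alone, where Spred1 was -0.0042. The mean for Spred2 was 9.5e-05 with the block and 0.023 with the covariates. With a library left out, ranges that crossed 0 were, on day 1, -0.034 to 0.060 for Spred1, -0.068 to 0.071 for Spred2, -0.041 to 0.060 for Spred3 and -0.174 to 0.025 for Spry2. They were -0.050 to 0.065 for Spred2 on day 4, -0.122 to 0.072 for Spred3 and -0.10 to 0.020 for Spry1 on day 7. On day 10 they were -0.071 to 0.204 for Dusp1, -0.0066 to 0.238 for Dusp6, -0.098 to 0.059 for Spred1, -0.073 to 0.095 for Spred3 and -0.132 to 0.039 for Spry4, and for the mean -0.063 to 0.021 for Dusp5, -0.031 to 0.019 for Spred2 and -0.011 to 0.034 for Spred3.

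Counts of all genes called varied more. On day 4 they were 20, against 71 with DESeq2, 39 with the covariates, 8 with the day alone and 3 to 23 with a library left out. On day 10 they were 30, against 128 with DESeq2, 9 with the block, 3 with the covariates, 0 with the day alone and 1 to 45 with a library left out. For a response that differed between days they were 4, against 13 with RLE, 202 with DESeq2, 37 with no filter, 15 with the filter of 1 CPM, 2 with the block and 1 to 20 with a library left out. On average over the days they were 21, against 60 with DESeq2. On day 1 they were 1, against 15 with DESeq2, and on day 7 they were 1, against 9 with DESeq2 and 6 with the day alone.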
